A study of Mus musculus with 6 samples.

Results

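The 9 acyl-CoA thioesterase genes Acot1, Acot2, Acot3, Acot4, Acot7, Acot8, Acot9, Acot12 and Acot13 were taken from a liver count table of 34866 genes by matching its versioned Ensembl identifiers to gene symbols. All 9 were found once, and all 9 had enough counts to be tested. The measurement was mRNA sequencing of livers of 8-week-old male C57BL/6 mice that had free access to food and water and were dosed by intraperitoneal injection. There were 2 groups of 3 libraries. The iD1 group received iD1, which the labels name by this code alone, without dose, time or target. The vehicle group is called vehicle in the sample titles, although its treatment label reads untreated. A vehicle column whose number no sample title carries was used as the unnumbered vehicle replicate. Nothing in the labels states that each library is a separate mouse, and p-values therefore measure only the spread between these samples, which may be technical.

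Acyl-CoA thioesterases split fatty acids bound to coenzyme A into the free fatty acid and coenzyme A, the reverse of what acyl-CoA synthetases do, and so set how much activated fatty acid is at hand in a compartment of the cell. The type I enzymes, here Acot1 to Acot4, share an alpha/beta-hydrolase fold and come from tandem gene copies, while the type II enzymes, here Acot7, Acot8, Acot9, Acot12 and Acot13, share a hotdog fold and lie apart. In mouse liver the type I genes are known as targets of PPAR-alpha, the nuclear receptor that raises fatty acid oxidation in fasting.

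Totals ranged from 23515571 to 35207596 estimated counts in iD1 libraries and from 27160894 to 37613549 in vehicle libraries. Values are given in CPM, counts brought to a common library size with TMM factors, and a gene is called where its Benjamini-Hochberg adjusted p in edgeR's quasi-likelihood test is under 0.05. The liver label was checked against 8 hepatocyte markers, whose summed level was 99205 to 112321 CPM in iD1 libraries and 75456 to 100498 CPM in vehicle libraries, with 4 of the 8 called higher. Mitochondrially encoded genes took 8.68% to 10.3% of the counts in iD1 libraries and 10.6% to 13.6% in vehicle libraries, without overlap. The summed neutrophil markers stood at 3.59 to 12.0 CPM in iD1 libraries and 1.16 to 1.32 CPM in vehicle libraries, with 3 of 4 tested markers called higher and Ly6g at 0 in the iD1 libraries. The summed neuron markers stood at 5.05 to 12.1 CPM in iD1 libraries and 2.41 to 2.73 CPM in vehicle libraries, with 1 of 2 tested markers called higher and Nefl at 0 in all 6 libraries. Syt1 alone made up most of that sum, with 5.12, 4.37 and 11.5 CPM in iD1 and 2.30, 1.86 and 2.24 CPM in vehicle libraries, while Snap25, Tubb3 and Stmn2 were at or near 0 in both groups. The part of any of these in the results on the thioesterases was not tested. In bulk liver, fewer cells of a type and less RNA per cell cannot be told apart.

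In GENCODE M21 on GRCm38 all 9 are protein-coding genes. Acot2 (ENSMUSG00000021226, chr12:83987861-83993873), Acot1 (ENSMUSG00000072949, chr12:84009490-84018371), Acot4 (ENSMUSG00000052392, chr12:84038379-84048601) and Acot3 (ENSMUSG00000021228, chr12:84052144-84060402) follow each other on the plus strand. With Acot5 and Acot6 they fill 123.488 kb. The type II genes are scattered. Acot7 (ENSMUSG00000028937) lies at chr4:152178134-152271855, Acot8 (ENSMUSG00000017307) at chr2:164792765-164804882 and Acot9 (ENSMUSG00000025287) at chrX:155262443-155297654. Acot12 (ENSMUSG00000021620) lies at chr13:91741512-91786148 and Acot13 (ENSMUSG00000006717) at chr13:24817948-24831540. The build used for the counts was not given in the sources used here, and the version of the Acot8 identifier in the table differs from the annotation's.

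The type I genes are close copies. Over aligned coding bases Acot1 and Acot2 were 95.6% identical, Acot2 and Acot3 84.2%, Acot1 and Acot3 84.0%, and Acot1 and Acot4 74.8%. The coding sequence of Acot2, whose protein carries a mitochondrial targeting sequence, has 1359 bases, against 1257 in Acot1. A stretch of 75 bases inside 1 exon of each gene shows how alike a read from these genes can be, with capitals for bases that differ from Acot1. The sequences are from GRCm38.
Acot2 (chr12:83990494-83990568, plus strand): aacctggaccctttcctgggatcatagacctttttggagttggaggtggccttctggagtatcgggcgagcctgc
Acot1 (chr12:84014379-84014453, plus strand): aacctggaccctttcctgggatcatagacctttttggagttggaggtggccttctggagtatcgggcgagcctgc
Acot4 (chr12:84041837-84041911, plus strand): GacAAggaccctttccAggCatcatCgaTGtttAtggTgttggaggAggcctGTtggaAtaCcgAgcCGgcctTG
Acot3 (chr12:84056909-84056983, plus strand): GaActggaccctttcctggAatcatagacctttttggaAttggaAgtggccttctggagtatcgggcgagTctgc
The window is the first coding stretch of this length that is identical in Acot1 and Acot2 and aligns without gaps in Acot3 and Acot4. The match of Acot1 and Acot2 here was thus set by the choice, and 19.4% of the 75-base words of Acot1 occur in Acot2. In this window Acot3 differed from Acot1 at 6 bases and Acot4 at 20. Across whole transcripts, 26.0% of the 75-base words of Acot1 and 21.2% of those of Acot2 also occur in another gene, mostly in each other. The share was 16.0% for Acot3, of which the largest part was with the overlapping predicted gene Gm49366, 7.15% for Acot9, all with Acot10, and 1.74% for Acot4. It was 0 for Acot7, Acot8, Acot12 and Acot13. How the authors' counting shared out such reads was not given in the sources used here, so the single values of Acot1, Acot2 and Acot3 are uncertain, by an amount these shares do not bound. This bears most on Acot2, which had 177, 136 and 201 counts in iD1 libraries, where Acot1 had 1804, 796 and 1569.

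Of the 9 thioesterase genes, 3 were called, which is 33.3%, against 16.7% of all 13718 genes tested. Acot2 and Acot12 were higher in iD1 livers and Acot3 was lower, where 8.42% of all genes were called higher and 8.30% lower. Of all called genes 50.4% were higher with TMM, 24.1% with library size only as the scaling and 38.4% with upper-quartile factors. The CPM of the groups did not overlap in these same 3 genes, again 33.3%, against 37.2% of all genes. With 9 genes, each gene moves such a share by a large step, so the count describes these genes and no more. The median log2 fold change of the 9, iD1 over vehicle, was 0.41, against 0.000637 over all genes tested, and 6 of the 9 were positive. With library size only, Acot7 was no longer positive (-0.0060) and the median of all genes was -0.20.

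**Figure D1:**
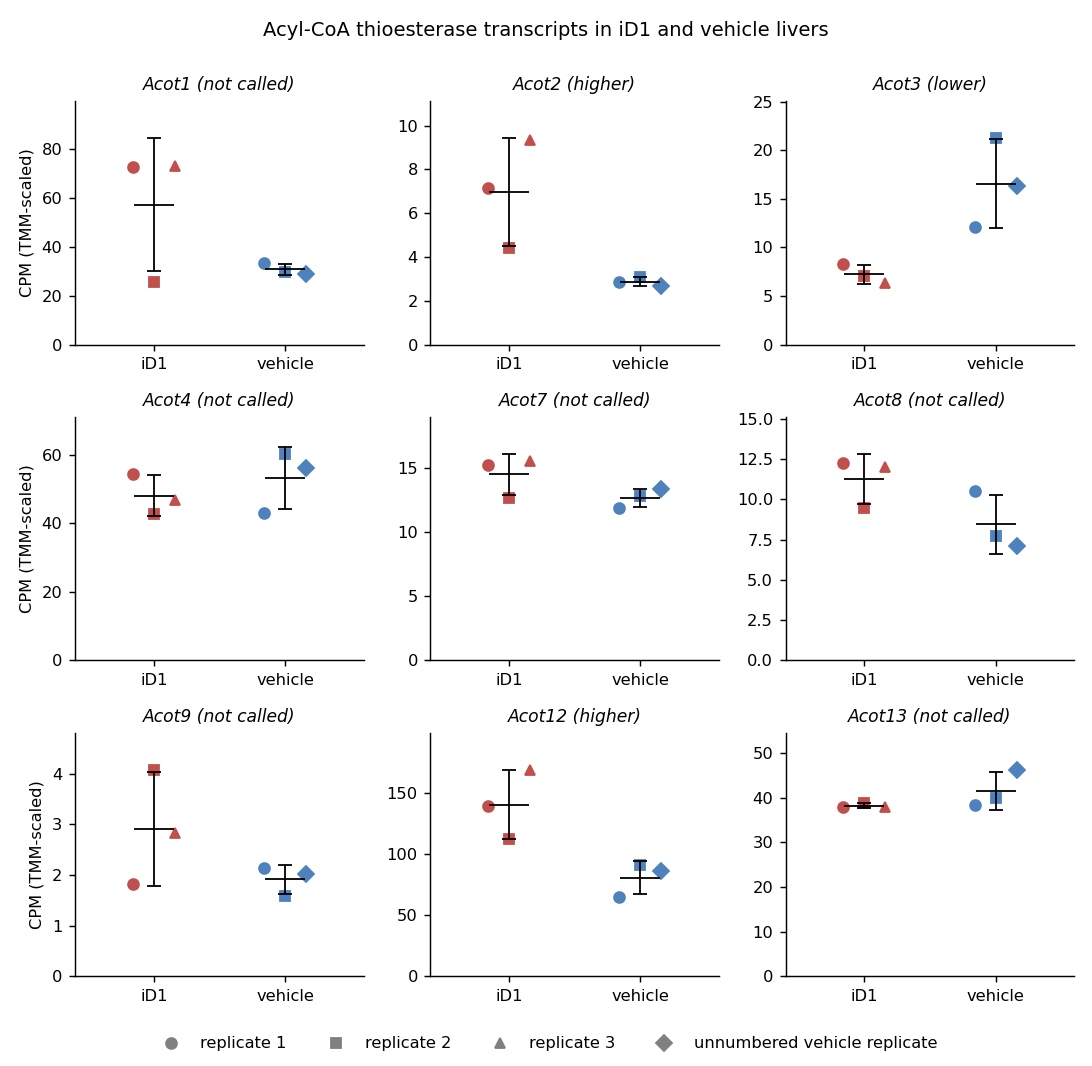
CPM of the 9 thioesterase genes on the y axis, each panel starting at 0, in the 3 iD1 and the 3 vehicle libraries. Points are libraries, the wide line is the mean and the bars are 1 SD. Acot2 and Acot12 lie higher in each iD1 library than in any vehicle library and Acot3 lower, while iD1 replicate 2 stands below the other iD1 libraries for Acot1.

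The mitochondrial type I enzyme and its cytosolic near-twin come first along the chromosome. Acot2 acts on long-chain acyl-CoA in the mitochondrial matrix. It had 7.13, 4.40 and 9.33 CPM in iD1 replicates 1, 2 and 3, against 2.86 and 3.11 CPM in vehicle replicates 1 and 2 and 2.67 CPM in the unnumbered vehicle replicate. These values rest on 177, 136 and 201 counts in iD1 and on 86, 129 and 87 counts in vehicle livers. Every iD1 library was above every vehicle library, and the iD1 libraries were spread more widely than the vehicle ones. Acot2 averaged 6.96 ± 2.47 CPM in iD1 and 2.88 ± 0.222 CPM in vehicle livers (SD, n = 3 each). Its log2 fold change was 1.26 (SE 0.26), 2.40-fold, with adjusted p = 0.0110 in edgeR's quasi-likelihood test. The call was lost without the unnumbered vehicle replicate, where the log2 fold change was 1.20 and the adjusted p 0.0517.

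Acot1, which hydrolyses long-chain acyl-CoA in the cytosol, was not called. It had 72.7, 25.8 and 72.9 CPM in iD1 replicates 1, 2 and 3, against 33.4, 29.8 and 28.9 CPM in vehicle replicates 1 and 2 and the unnumbered one. In iD1 livers 2 libraries stood above all vehicle libraries and iD1 replicate 2 below all of them, so the groups overlapped. The means were 57.1 ± 27.2 CPM in iD1 and 30.7 ± 2.35 CPM in vehicle livers (SD, n = 3 each). The log2 fold change was 0.89 (SE 0.39) with adjusted p = 0.182. Without iD1 replicate 2 it was 1.24 and called (adjusted p = 0.00108), and DESeq2 on all 6 libraries called it too (0.90, adjusted p = 0.0208). In iD1 replicate 2 the summed adipocyte markers were at 21.1 CPM, against 1.53 and 2.74 CPM in the other iD1 libraries and 2.69 to 7.76 CPM in vehicle libraries. Ucp1 alone gave 16.6 CPM of that sum, and Adipoq, at 0.712 CPM in iD1 replicate 2, was below the 0.964 CPM of vehicle replicate 2. None of these 6 markers was at 0 throughout, 0 of the 3 tested was called, and their part in the value of Acot1 was not tested.

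Because a read can match both Acot1 and Acot2, their counts were also added. The sum had 79.8, 30.2 and 82.2 CPM in iD1 replicates 1, 2 and 3, against 36.2, 32.9 and 31.6 CPM in vehicle libraries. It followed Acot1, which supplies most of it, with iD1 replicate 2 below all vehicle libraries. Its log2 fold change was 0.93 (SE 0.37) with adjusted p = 0.148 in edgeR. It was called without iD1 replicate 2 (1.27, adjusted p = 8.68e-04) and by DESeq2 (0.93, adjusted p = 0.0115). The ratio of Acot1 to Acot2 in CPM, which is set between libraries and not corrected for length, was 10.2, 5.85 and 7.81 in iD1 libraries and 11.7, 9.57 and 10.9 in vehicle libraries, so that 1 iD1 ratio lay within the vehicle range.

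The peroxisomal type I enzymes lie next. Acot3, which acts on long-chain acyl-CoA in peroxisomes, had 8.26, 7.05 and 6.36 CPM in iD1 replicates 1, 2 and 3, against 12.1 and 21.2 CPM in vehicle replicates 1 and 2 and 16.3 CPM in the unnumbered vehicle replicate. All iD1 libraries were below all vehicle libraries, and here the vehicle libraries were the more spread. The log2 fold change was -1.20 (SE 0.21) with adjusted p = 0.00588 in edgeR's test. Acot3 kept its call without any 1 of the 6 libraries, with an adjusted p of at most 0.0305. The predicted gene Gm49366, which shares 396 exon bases with Acot3 and 33 with Acot4 on the same strand, averaged 0.321 ± 0.255 CPM in iD1 and 1.16 ± 0.665 CPM in vehicle livers (SD, n = 3 each). It was not called (adjusted p = 0.0857). The antisense gene 4732463B04Rik, which shares 312 exon bases with Acot3 and 615 with Acot4, had no entry in the authors' counts and could not be analysed.

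Acot4, known as a peroxisomal enzyme that cleaves succinyl-CoA in mouse, was not called. It had 54.5, 42.7 and 46.9 CPM in iD1 replicates 1, 2 and 3, against 43.1, 60.2 and 56.3 CPM in the vehicle libraries. The groups overlapped, with vehicle replicate 1 near the lowest iD1 value. Acot4 averaged 48.0 ± 5.99 CPM in iD1 and 53.2 ± 8.97 CPM in vehicle livers (SD, n = 3 each), a log2 fold change of -0.15 (SE 0.15, adjusted p = 0.547).

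**Figure D2:**
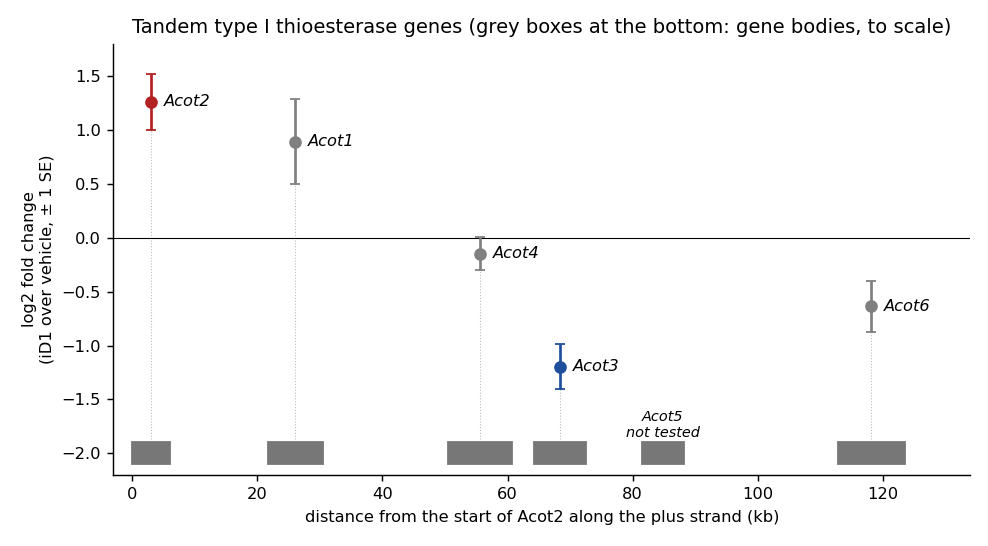
Log2 fold change, iD1 over vehicle, of the tandem type I genes on the y axis (points, with bars of 1 SE) against distance in kb from the start of Acot2; grey boxes are gene bodies drawn to scale, red marks a gene called higher and blue a gene called lower. Acot2 at 1.26 and Acot1 at 0.89 lie above 0, Acot4 at -0.15 near it, and Acot3 at -1.20 and Acot6 at -0.64 below it.

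Along the chromosome the fold changes thus ran from Acot2 at 1.26 and Acot1 at 0.89 through Acot4 at -0.15 to Acot3 at -1.20. Acot6, the last gene of the row and not among the 9, averaged 3.60 ± 1.07 CPM in iD1 and 5.59 ± 0.960 CPM in vehicle livers (SD, n = 3 each) and was not called (-0.64, SE 0.23, adjusted p = 0.0942). Acot5 had 3 counts in all 6 libraries together, at or under the limit of 3 counts that a library with 0 counts allows (0.0723 to 0.139 CPM), and was not tested. The summed counts of Acot1 to Acot6 were 147, 82.6 and 139 CPM in iD1 libraries, against 98.0, 120 and 109 CPM in vehicle libraries. The groups overlapped and the log2 fold change of the sum was 0.17 (SE 0.21, adjusted p = 0.611), and -0.013 with library size only as the scaling.

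The makeup of this sum was compared as shares within each library, which do not depend on the scaling. Acot3 held 5.61%, 8.54% and 4.59% of the counts of Acot1 to Acot6 in iD1 replicates 1, 2 and 3, against 12.3%, 17.7% and 15.0% in the vehicle libraries. Acot2 held 4.84%, 5.33% and 6.73% in iD1, against 2.92%, 2.60% and 2.45% in vehicle libraries. Acot6 held 3.25%, 3.29% and 2.38% in iD1, against 6.79%, 4.47% and 4.39% in vehicle libraries. The shares of none of these 3 genes overlapped between the groups, and iD1 replicate 2, the library with little Acot1, was no exception. Shares within a library depend on each other, so a larger share of Acot1 leaves less for the other genes. In CPM the groups were also apart for Acot2 and Acot3, as they were for 37.2% of all genes tested. For Acot6 they overlapped, with 4.80 CPM in iD1 replicate 1 and 4.78 CPM in the unnumbered vehicle replicate. In an exact two-sided permutation test each had p = 0.1, which is the smallest p that 3 against 3 libraries can give. Acot1 held 49.3%, 31.2% and 52.5% in iD1, against 34.0%, 24.9% and 26.6% in vehicle libraries (exact p = 0.2). Acot4 held 37.0%, 51.7% and 33.8% in iD1, against 43.9%, 50.3% and 51.6% in vehicle libraries (exact p = 0.4). For Acot1 and Acot4, the larger shares of the cluster, the groups overlapped. The ratio of Acot2 to Acot3 in CPM, again not corrected for length, was 0.863, 0.624 and 1.47 in iD1 libraries and 0.237, 0.146 and 0.164 in vehicle libraries.

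**Figure D3:**
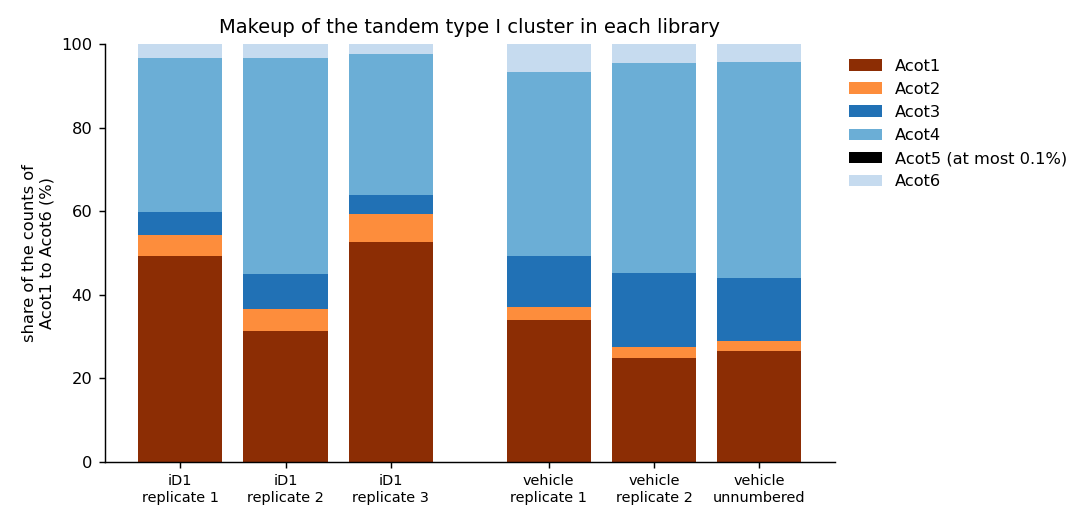
Share in percent of the summed counts of Acot1 to Acot6 that each gene holds, 1 stacked bar per library, iD1 at the left and vehicle at the right. The Acot3 band is 4.59% to 8.54% in iD1 and 12.3% to 17.7% in vehicle libraries, and the Acot2 band is 4.84% to 6.73% in iD1 and 2.45% to 2.92% in vehicle libraries.

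The 250 bases before the starts of these 4 neighbours are shown because Acot2 and Acot3 differed in the direction of their calls. They come from RefSeq promoter windows on GRCm38.p6, in which 8 of the 9 thioesterase genes matched by symbol. Capitals mark matches, on either strand, to CCAAT, to the TATA-box letters TATAAA, to the E-box CACGTG, to the AP-1 letters TGANTCA, to the cyclic AMP element TGACGTCA and to AAAGGTCA, which occurs in elements bound by PPAR and HNF4.
Acot2 (chr12:83987611-83987860, plus strand): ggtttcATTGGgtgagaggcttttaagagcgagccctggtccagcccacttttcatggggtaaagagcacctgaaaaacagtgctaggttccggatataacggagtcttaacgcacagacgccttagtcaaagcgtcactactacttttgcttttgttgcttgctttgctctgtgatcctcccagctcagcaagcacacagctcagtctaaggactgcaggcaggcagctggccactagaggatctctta
Acot1 (chr12:84009252-84009501, plus strand): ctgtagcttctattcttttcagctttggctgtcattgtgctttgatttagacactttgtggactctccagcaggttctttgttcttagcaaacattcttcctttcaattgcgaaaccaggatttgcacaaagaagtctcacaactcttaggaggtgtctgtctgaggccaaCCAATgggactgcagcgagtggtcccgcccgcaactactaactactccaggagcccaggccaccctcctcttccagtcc
Acot4 (chr12:84038129-84038378, plus strand): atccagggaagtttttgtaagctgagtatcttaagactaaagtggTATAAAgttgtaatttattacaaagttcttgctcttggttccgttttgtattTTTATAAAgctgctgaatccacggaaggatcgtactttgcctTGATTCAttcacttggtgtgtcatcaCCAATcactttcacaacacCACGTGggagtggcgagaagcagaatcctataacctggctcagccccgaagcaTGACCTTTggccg
Acot3 (chr12:84051894-84052143, plus strand): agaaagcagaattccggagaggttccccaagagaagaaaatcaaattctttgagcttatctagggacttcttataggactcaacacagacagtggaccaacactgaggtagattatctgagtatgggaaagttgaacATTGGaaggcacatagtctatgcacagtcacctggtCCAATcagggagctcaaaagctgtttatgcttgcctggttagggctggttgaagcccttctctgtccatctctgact
CCAAT was found in all 4 windows and in those of Acot8 and Acot9, thus in 6 of 8, where 34.5% of 27025 promoters of that length hold it. Acot3 had 2 matches, at -113 to -109 and -77 to -73 from the start, and Acot1 had 1 at -79 to -75. The other motifs fell on Acot4 among the cluster genes. There, AAAGGTCA stood on the minus strand at -13 to -6 (1.31% of promoters), CACGTG at -66 to -61 (6.05%), TGANTCA at -111 to -105 (6.87%) and TATAAA 3 times (13.0%), a pair of these on opposite strands sharing bases. Outside the cluster TGANTCA was also found in Acot8 and TATAAA in Acot9, and TGACGTCA (1.62% of promoters) in none of the 8. A match describes letters in this window only. Acot2 and Acot3, whose values moved apart, had CCAAT matches and no match to the other motifs.

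The type II genes were compared next. Acot12, the cytosolic acetyl-CoA hydrolase of liver, had 139, 113 and 169 CPM in iD1 replicates 1, 2 and 3, against 65.3 and 91.4 CPM in vehicle replicates 1 and 2 and 85.9 CPM in the unnumbered vehicle replicate. Every iD1 library was above every vehicle library. The means were 140 ± 28.2 CPM in iD1 and 80.9 ± 13.7 CPM in vehicle livers (SD, n = 3 each). The log2 fold change was 0.79 (SE 0.18), 1.73-fold, with adjusted p = 0.0163 in edgeR's test. Acot12 was no longer called when iD1 replicate 3 (adjusted p = 0.0604), vehicle replicate 1 (0.0520) or the unnumbered vehicle replicate (0.0536) was left out, and with library size only (log2 fold change 0.60, adjusted p = 0.0557). Of the 3 called genes Acot12 had the most counts, 1964 to 3792 per library, and no 75-base word in common with another gene. Its exons share 149 bases with the antisense gene 4833422C13Rik, which had no entry in the authors' counts and could not be analysed. The libraries were made with a stranded kit, but whether the counting used strand was not given in the sources used here.

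Acot8, a peroxisomal enzyme of broad chain-length range, had 12.3, 9.45 and 12.0 CPM in iD1 replicates 1, 2 and 3, against 10.5, 7.74 and 7.08 CPM in the vehicle libraries. The groups overlapped through iD1 replicate 2 and vehicle replicate 1. The log2 fold change was 0.41 (SE 0.18). Its unadjusted p of 0.0449 was under 0.05, as for the 3 called genes, and its adjusted p was 0.149 in edgeR's test. Exons of Acot8 share 246 bases with Snx21 on the other strand, for which the log2 fold change was 0.17 (adjusted p = 0.539).

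Acot9, a mitochondrial enzyme, had the fewest counts of the 9, 45, 126 and 61 in iD1 and 64, 66 and 66 in vehicle libraries. It had 1.81, 4.08 and 2.83 CPM in iD1 replicates 1, 2 and 3, against 2.13, 1.59 and 2.02 CPM in the vehicle libraries. Here iD1 replicate 2, low for Acot1, was the highest library, and iD1 replicate 1 lay within the vehicle range. The log2 fold change was 0.62 (SE 0.30, adjusted p = 0.194). Without iD1 replicate 1 it was 0.87 and called (adjusted p = 0.0463), and without iD1 replicate 2 it was 0.27. Its close copy Acot10, 97.2% identical over the coding bases, had 0 counts in all 6 libraries.

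Acot7, described first as a brain acyl-CoA hydrolase, had 15.3, 12.7 and 15.6 CPM in iD1 replicates 1, 2 and 3, against 11.9, 12.8 and 13.4 CPM in the vehicle libraries. The groups overlapped, since iD1 replicate 2 was within the vehicle range. Its log2 fold change was 0.19 (SE 0.13, adjusted p = 0.340). Acot13, also called Them2 and known to bind the phosphatidylcholine transfer protein Pctp, had 37.8, 38.8 and 37.9 CPM in iD1 and 38.4, 39.8 and 46.2 CPM in vehicle libraries. It had the tightest iD1 values of the 9 for its level, and iD1 replicate 2 lay above the lowest vehicle library. Acot13 averaged 38.2 ± 0.557 CPM in iD1 and 41.5 ± 4.19 CPM in vehicle livers (SD, n = 3 each), a log2 fold change of -0.12 (SE 0.11, adjusted p = 0.520). For Acot4, Acot7, Acot8, Acot9, Acot13 and Acot1 the missed threshold does not show that the groups were alike.

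**Figure D4:**
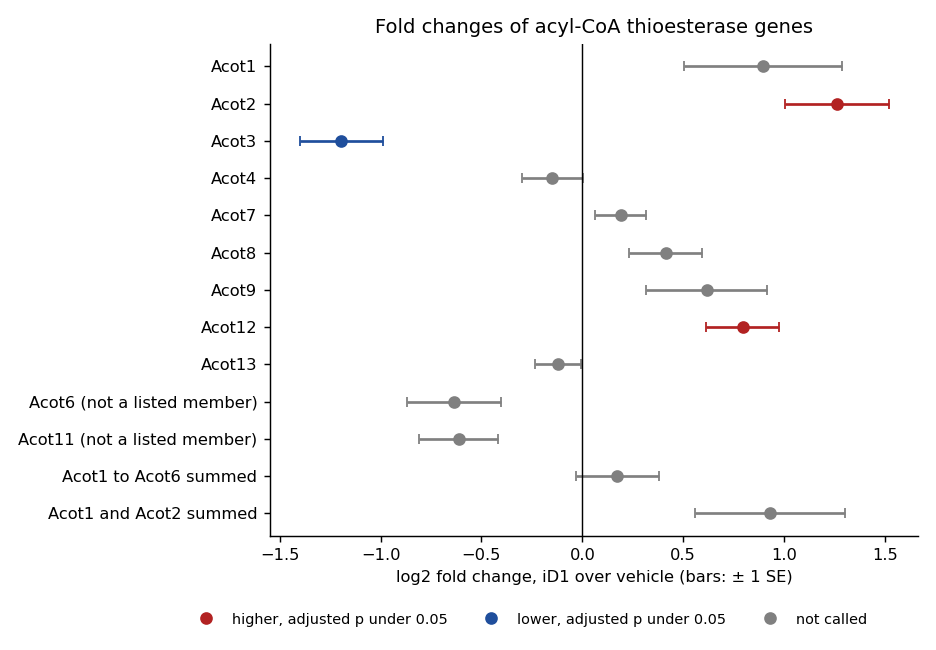
Log2 fold change, iD1 over vehicle (x axis, bars of 1 SE), of the 9 thioesterase genes, of Acot6 and Acot11, and of the summed cluster counts; colour gives the call in edgeR's test. Acot2 (1.26) and Acot12 (0.79) are called higher and Acot3 (-1.20) lower; the small positive value of Acot7 and that of the Acot1 to Acot6 sum turn negative (-0.0060 and -0.013) with library size only as the scaling.

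To set levels of different genes beside each other, CPM was divided by the length in kb of the transcript with the longest coding sequence. On this scale, in iD1 livers Acot13 had the highest level of the 9 at 53.0 CPM per kb, followed by Acot12 at 45.9, Acot1 at 25.1, Acot8 at 9.76, Acot7 at 9.65, Acot4 at 7.74, Acot2 at 3.17, Acot3 at 2.11 and Acot9 at 1.66. In vehicle livers Acot13 had 57.5 CPM per kb, Acot12 26.4, Acot1 13.5, Acot4 8.57, Acot7 8.44, Acot8 7.33, Acot3 4.82, Acot2 1.31 and Acot9 1.09. Acot13 stood clear of Acot12 in vehicle livers and overlapped with it in iD1 livers. Neighbours whose libraries also overlapped in iD1 livers were Acot8 with Acot7, Acot7 with Acot4, Acot2 with Acot3 and Acot3 with Acot9. In vehicle livers they were Acot4 with Acot7, Acot7 with Acot8, Acot8 with Acot3 and Acot2 with Acot9. The level of Acot3 was thus clear of that of Acot2 in vehicle livers and not in iD1 livers. These levels assume that each gene is transcribed as the 1 transcript used.

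The genes whose log2 CPM followed each called thioesterase most closely over the 6 libraries were listed among 6645 genes with a mean of at least 10 CPM. For Acot2 they were Decr2 (Pearson r = 0.998), Tmem56 (0.996) and Rnf149 (0.995). Decr2, a peroxisomal reductase for unsaturated fatty acids, had 198, 164 and 226 CPM in iD1 and 133, 135 and 129 CPM in vehicle libraries. As for Acot2, iD1 replicate 2 was the lowest and iD1 replicate 3 the highest iD1 library, a likeness for which the ranking itself selects. For Acot3 they were Ptpn21 (0.994), Nav2 (0.990) and Cpne3 (0.988), and for Acot12 Cdk18 (0.994), Kmt2b (0.994) and Cyp4a32 (0.992). With 6 libraries in 2 groups that share depth and scaling, and with so many genes ranked, these values are descriptions.

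The other genes that make, use or bind acyl-CoA were counted in 9 lists. Each count is to be read beside the share of all 13718 genes tested, of which 8.42% were called higher and 8.30% lower. The lists were chosen with earlier results of these data known, so the choice itself may have shaped these counts. Of 7 tested other thioesterases (Acot5, Acot10 and Them5 had too few counts) 0 were called by edgeR, DESeq2 or limma-voom, and 2 had an unadjusted p under 0.05 in edgeR. They were Acot11, with 3.83 ± 0.301 CPM in iD1 and 5.85 ± 1.30 CPM in vehicle livers (SD, n = 3 each; adjusted p = 0.0579), and Acot6. Exons of Acot11 share 1263 bases with Fam151a on the other strand. The median log2 fold change of that list was -0.05. Without iD1 replicate 1, with library size only or with upper-quartile factors 1 was lower, and with no filter on low counts 2 were.

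Acyl-CoA synthetases, which run the opposite reaction, were called in 5 of 16, with 3 higher and 2 lower and a median of 0.16. Of all genes tested 16.7% were called. Acss2, which makes acetyl-CoA from the acetate that Acot12 releases, had 146, 118 and 119 CPM in iD1 replicates 1, 2 and 3, against 275, 268 and 228 CPM in the vehicle libraries. Its log2 fold change of -1.01 (SE 0.14, adjusted p = 0.00217) stands beside 0.79 for Acot12, and both kept to non-overlapping groups. Slc27a2, a very long-chain synthetase, rose to 1447 ± 276 CPM in iD1, against 764 ± 47.3 CPM in vehicle livers (SD, n = 3 each), and Acsl3 fell to 23.0 ± 4.78 CPM in iD1, against 46.2 ± 7.38 CPM in vehicle livers (SD, n = 3 each). Only 1 synthetase was higher when iD1 replicate 3 or the unnumbered vehicle replicate was left out.

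Among 15 genes of coenzyme A synthesis and breakdown 2 were higher and 1 lower, with a median of 0.05. With 16.7% of all genes called, the counts of this and the next 2 lists describe the named genes only. The lower one was Nudt7, which degrades coenzyme A in peroxisomes, the compartment of Acot3. It had 307, 281 and 303 CPM in iD1, against 652, 486 and 599 CPM in vehicle libraries (log2 fold change -0.96, SE 0.15, adjusted p = 0.00373). The higher ones, the pantothenate kinase gene Pank1 (0.56) and the mitochondrial coenzyme A carrier gene Slc25a42 (0.58), both lost their calls when iD1 replicate 3 or the unnumbered vehicle replicate was left out. Pank1 lost it also without vehicle replicate 2, and Slc25a42 without vehicle replicate 1. Of 11 binding proteins, including Pctp, the partner of Acot13, 1 was lower (Acbd4, -0.71, adjusted p = 0.0128, lost without iD1 replicate 3) and 0 higher, and 2 had an unadjusted p under 0.05. Without iD1 replicate 2 there was 1 higher. Of 4 genes that pass acyl groups to amino acids 0 were called by edgeR, where 1 had an unadjusted p under 0.05. With DESeq2 or limma-voom, and in edgeR with upper-quartile factors, with at least 1 CPM in 3 libraries, with no robust shrinkage or without vehicle replicate 1, 1 was lower, and with library size only 2 were.

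The lists of fatty acid oxidation hold the pathways that use the substrates of Acot2 and Acot3. Of all genes tested 8.42% were called higher and 8.30% lower. Of 19 peroxisomal genes 4 were higher and 0 lower, with a median log2 fold change of 0.20, so that Acot3 differed in sign from every called gene of this list. The list does not hold every peroxisomal gene, and Nudt7, counted with the coenzyme A genes, was called lower as Acot3 was (-0.96). Eci2, an isomerase for unsaturated acyl-CoA, had 264, 341 and 364 CPM in iD1, against 120, 118 and 143 CPM in vehicle libraries (log2 fold change 1.35, SE 0.16, adjusted p = 9.81e-04). The count of higher peroxisomal genes was 2 when the unnumbered vehicle replicate, vehicle replicate 2 or iD1 replicate 3 was left out, and 7 by DESeq2, and 1 gene was lower without iD1 replicate 2 or vehicle replicate 1. Of 17 mitochondrial genes 5 were higher and 0 lower, with a median of 0.34. They included Acadl, the long-chain acyl-CoA dehydrogenase, with 194 ± 5.54 CPM in iD1 and 133 ± 10.5 CPM in vehicle livers (SD, n = 3 each; log2 fold change 0.55, adjusted p = 0.0139), a call lost when the unnumbered vehicle replicate, vehicle replicate 2 or iD1 replicate 3 was left out. The mitochondrial count was 1 without any 1 of these same 3 libraries.

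Of 16 other PPAR-alpha targets 10 were higher and 0 lower, with a median log2 fold change of 1.73. Of all genes 8.42% were called higher and 8.30% lower. Because the list was chosen with earlier results of these data known, part of this excess may come from the choice. The excess was not tested. The carnitine transporter gene Slc22a5 had 60.7, 74.1 and 83.7 CPM in iD1, against 14.8, 16.1 and 18.1 CPM in vehicle libraries (2.16, SE 0.15, adjusted p = 9.99e-05). Ucp2 rose by 1.16 (SE 0.15, adjusted p = 0.00127). The count was 6 without iD1 replicate 3 and 5 without the unnumbered vehicle replicate. Among the type I thioesterases, which belong to the same class of targets, Acot2 was higher, Acot3 lower, and Acot1 and Acot4 were not called. Of 15 regulator genes 3 were higher and 2 lower, with a median of 0.18. The regulator with the smallest p, Rxrg, was lower. It had 1.45, 1.78 and 1.16 CPM in iD1, against 3.36, 4.19 and 3.71 CPM in vehicle libraries (-1.35, SE 0.23, adjusted p = 0.00494). Rxrg kept its call without any 1 of the 6 libraries. Ppara itself had 88.2, 65.7 and 102 CPM in iD1, against 58.4, 58.0 and 49.2 CPM in vehicle libraries (0.63, SE 0.16, adjusted p = 0.0299), and its groups did not overlap. The call of Ppara held only without iD1 replicate 2 among the 6 libraries left out in turn. When iD1 replicate 3 or the unnumbered vehicle replicate was left out no regulator was called higher, and without iD1 replicate 2 or vehicle replicate 2 there was 1. Only 1 regulator was lower without iD1 replicate 1, iD1 replicate 3 or any 1 vehicle library. With library size only as the scaling, 2 peroxisomal, 2 mitochondrial and 1 regulator gene were called higher, 1 peroxisomal gene was called lower, and of the coenzyme A genes 0 were higher and 3 lower.

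**Figure D5:**
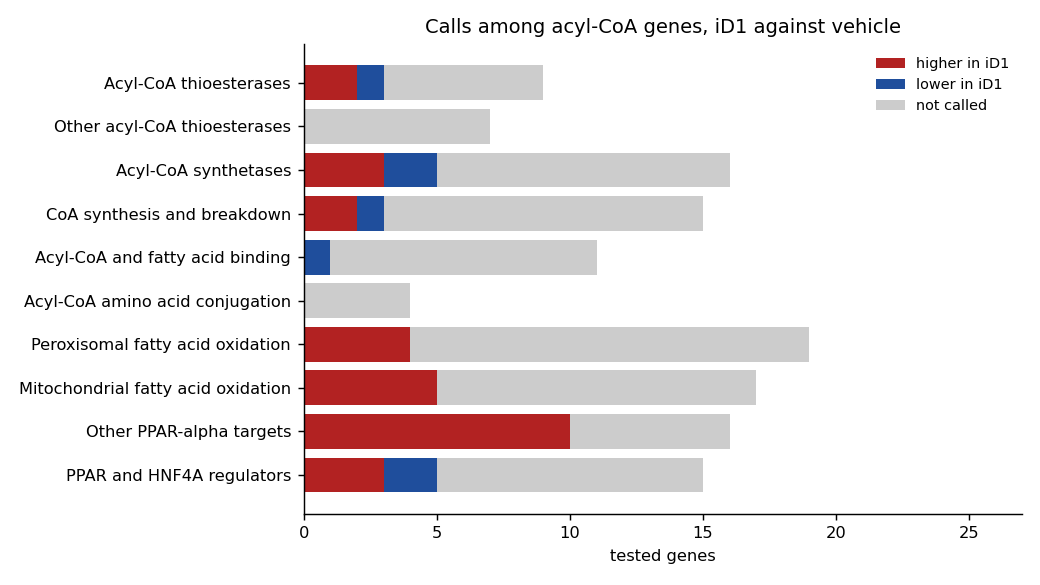
Number of tested genes (x axis) called higher (red), called lower (blue) or not called (grey) in iD1 against vehicle livers, for the 9 thioesterases and for 9 lists of related genes. The thioesterases hold 2 higher and 1 lower of 9, the other PPAR-alpha targets 10 higher and 0 lower of 16. Genes and lists were chosen with earlier results of these data known. Of all genes tested 8.42% were called higher and 8.30% lower.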

How the data were processed

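Polyadenylated liver RNA was sequenced in 6 libraries, 3 with iD1 and 3 with vehicle. They were made with a stranded mRNA kit, per the labels' protocols. Whether they come from 6 separate mice is not stated there, and n = 3 counts libraries. The values deposited by the authors are estimated counts for each gene, which are not corrected for depth. Which aligner, quantifier, build and annotation made them was not given in the sources used here. In each library 22.6% to 27.7% of them were not whole, and they were rounded before testing. Symbols were found for 34582 of 34866 identifiers, and positions come from GENCODE M21 on GRCm38, with which 93.6% of the versioned identifiers matched.

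Genes were kept by edgeR's filterByExpr (minimum count 10, minimum total 15), which left 13718, and libraries were scaled by TMM, with factors of 0.878 to 1.01 in iD1 and 1.01 to 1.11 in vehicle. The comparison used the robust, two-sided quasi-likelihood F test of edgeR 4.0.16 in R 4.3.3, with p-values adjusted by Benjamini-Hochberg across all 13718 genes and a threshold of 0.05. Adjusted p-values are from this test unless another is named. The SE is the log2 fold change divided by the square root of F. With 3 libraries against 3 an exact test of 1 value cannot go under p = 0.1. The labels name no batch, and no 2 libraries of a group agreed within sampling noise.

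All 9 thioesterase genes are named. Of each related list up to 4 called genes by smallest p could be named, or up to 2 where none was called, and for each called thioesterase the 3 genes most correlated with it, leaving out predicted genes. The genes and lists were chosen with earlier results of these data known. Because of the shared sequence, whole-gene counts were also added over Acot1 and Acot2 and over Acot1 to Acot6. The alternatives were other scaling factors, other filters, DESeq2 1.42.0, limma-voom (limma 3.58.1), non-robust shrinkage, a threshold of 0.01, a replicate block and leaving out each library; the numbered libraries without a block, and the use of all fits on the lists, were added after seeing the data. The fit was tested on simulated data. There it recovered 21.0% of 62 genes changed 1.5-fold, 61.4% of 70 changed 2-fold and 92.6% of 68 changed 4-fold. It made 10 false calls among 13518 unchanged genes. In the real data many more genes were called, 2293, so the recovery rates may differ there. Changes of 2-fold or less can still be missed.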

Additional observations from a re-analysis of the deposited data

How the results depend on the processing

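With library size only as the scaling, the log2 fold change of Acot7 was -0.0060 and that of the summed Acot1 to Acot6 counts -0.013, both opposite in sign to the TMM values, and the median of all genes was -0.20. The summed counts of Acot1 and Acot2 were called by DESeq2 (0.93). Without 1 library at a time their log2 fold change ranged from 0.71 to 1.27, and the called thioesterases numbered 1 without the unnumbered vehicle replicate and 2 to 4 without another library. The called genes numbered 1212 without the unnumbered vehicle replicate and 1231 to 2574 without another library. At an adjusted p under 0.01 there were 825 genes and 1 thioesterase, Acot3. Replicate numbers 1 and 2 occur in both groups. With a replicate block on those 4 libraries 768 genes and 0 thioesterases were called by edgeR, and without a block, on the same 4 libraries, 521 genes and 0 thioesterases, while 3 thioesterases had an unadjusted p under 0.05 in each of these fits. In the block fit the log2 fold change was -1.07 for Acot3 (adjusted p = 0.0733), 0.91 for Acot2 (0.121) and 0.70 for Acot12 (0.148); both 4-library fits have fewer libraries than the others. The deviations of same-numbered libraries from their group means had a correlation of 0.169 for number 1 and -0.127 for number 2 across genes. Pairs of other libraries ranged from -0.245 to 0.218. With only 2 same-numbered pairs, these values cannot decide whether the numbers mark a pairing. The main fit used none. Among the 3 called thioesterases, Acot2 and Acot3 kept their calls under each other scaling, filter and test run on all 6 libraries at the threshold of 0.05, and Acot12 lost its call with library size only. The genes of lowest count, Acot9 and Acot2, rest on the fewest reads of the 9, from 45 to 201 per library.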
